A study of Mus musculus with 62 samples.

Results

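The genes of the cytosolic ribosomal proteins were followed in mouse brown adipose tissue, a heat-producing fat, during the growth of melanoma cells. Members were all rows of the deposited expression file whose symbol names a protein of the large subunit (Rpl) or the small subunit (Rps) of the cytosolic ribosome, including the stalk proteins Rplp0 to Rplp2 and Rpsa, and without rows named as numbered pseudogenes. This gave 88 of 47643 rows. Of these, 82 reached at least 1 TPM in at least 5 libraries and were tested among 12581 genes. They comprised 50 genes of the large and 32 of the small subunit. Of the 6 members that did not pass, Rps4l, Rps12l1, Rpl10l, Rps3a2 and Rps3a3 were listed at 0 in every library, and Rpl6l reached at most 0.152 TPM. TPM is a transcript abundance scaled for transcript length and for a fixed total per library.

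The cytosolic ribosome is built from ribosomal RNA and a set of proteins that are needed in nearly equal numbers, and it translates the messages of the nucleus. Mitochondria carry a separate ribosome, which translates the few messages of the mitochondrial genome. Messages for ribosomal proteins are abundant in most tissues, and many begin with a C followed by a run of pyrimidines, the TOP tract, through which the mTORC1 kinase and the RNA-binding protein LARP1 control their translation. RNA abundance, which was measured here, does not show translation.

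Female mice aged 2 months were injected with melanoma cells that were cachectic (the group CAC) or non-cachectic (NCAC), or were mock injected (Con), and brown fat was taken 2, 4, 6 and 8 weeks later. Cachexia is a wasting of fat and muscle seen with some tumours. The 12 groups had 5 libraries each except CAC at 8 weeks, with 7, and 62 in all. Apart from what the mouse names given next imply, no genetic change of the mice and no drug treatment is given. The sample labels name the strain C57BL6/J and the series text names NCI Ath/nude mice. These names differ, and which of them applies is not settled here. CAC and NCAC are different melanoma cells, so the identity of the cells and the cachexia they cause cannot be told apart. The labels call the libraries biological replicates and do not tie each to 1 animal, so p-values measure the spread between libraries only. In bulk tissue, fewer cells of a type and less RNA per cell cannot be told apart.

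Start regions of members are shown here because the TOP tract lies in them and because the members below differ in whether RefSeq's annotated start has one. Each line holds the 30 bases from 10 before to 20 after the annotated start in RefSeq's GRCm38.p6 annotation, read 5′ to 3′ on the strand of the gene. Capitals mark the longest run of a C followed by at least 4 letters that are each C or T, searched on that strand only. The first 3 genes rose in CAC on both scales used below, Rps26 was unevenly split with a pseudogene row, and the next 4 are 2 main genes, each followed by its paralog. The last 2 rose in CAC on both scales and hold no such run in this window. For Rps12, Rpl10 and Rpl27 these rises refer to their own rows. With pseudogene rows added, as given below, Rps12 and Rpl27 kept their call against Con on TPM only. Some genes have several annotated starts, and Rps27l has 2, of which the one with a run is shown and the other has none.
Rps6 (chr4:86857348-86857377, minus strand): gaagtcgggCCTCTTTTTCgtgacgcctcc
Rpl13a (chr7:45128726-45128755, minus strand): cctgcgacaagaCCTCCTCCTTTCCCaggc
Rps12 (chr10:23787190-23787219, minus strand): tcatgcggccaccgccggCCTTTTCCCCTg
Rps26 (chr10:128626487-128626516, minus strand): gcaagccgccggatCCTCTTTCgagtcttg
Rpl39 (chrX:37085203-37085232, minus strand): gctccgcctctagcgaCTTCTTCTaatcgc
Rpl39l (chr16:10170218-10170247, plus strand): aggCCTTTCCggatttccggtggtcgccat
Rps27 (chr3:90213629-90213658, minus strand): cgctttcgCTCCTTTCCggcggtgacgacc
Rps27l (chr9:66946076-66946105, plus strand): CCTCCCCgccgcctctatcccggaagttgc
Rpl10 (chrX:74270806-74270835, plus strand): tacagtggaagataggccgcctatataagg
Rpl27 (chr11:101442235-101442264, plus strand): ctgttcctgtctgctgctcgtgctgctaat
Of the 88 members 63 had an entry in RefSeq's promoter table, 62 of them tested. A run was found in 41 of those 62 (66.1%), against 39.6% of 27025 genes with an entry. A run of at least 8 letters was found in 24 members (38.7%), against 10.1% of all genes. These counts take the longest run over all annotated starts of a gene, and 10 of the 62 members have more than 1 start. With a run required at every start there were 34 members (54.8%), against 32.2% of all genes. A match describes the letters only, and annotated starts need not be the starts used in brown fat. The Rpl27 window lies before the start of that gene in the GENCODE annotation (101442298), so its lack of a run depends on the annotation used.

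Expression of the members spanned a wide range of levels. Rplp1, an acidic protein of the stalk that recruits translation factors, had the highest mean over all libraries at 703.9 TPM (range 459.6 to 1335). Other abundant members were Rps29 (504.6 TPM) and Rpl19 (472.0 TPM). The mean was at least 300 TPM in 20 members, between 100 and 300 TPM in 34 and under 100 TPM in 28. The 10 highest made up 30.6% of the members' summed TPM. The lowest tested members were Rpl39l (5.61 TPM), Rpl27 (13.2 TPM) and Rpl3l (14.2 TPM). Between libraries of 1 group the members had a median standard deviation of 0.24 on the log2(TPM + 1) scale, which was not set beside that of other genes. Rpl19, a protein of the large subunit, was the steadiest at 0.17, while Rps26 (1.88), Rpl3l (1.18) and Rps12 (0.78) varied most.

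Members rose and fell together from library to library within groups. After group means were taken out, the median Pearson correlation over the 3321 pairs of members was 0.861 on TPM across the 62 libraries, which share the fixed total of each library. It was 0.724 once the mitochondrially encoded rows had been removed. No such value for other genes is given here, so these correlations are not shown to be particular to the members. For 69 of 82 members the correlation with the median of the others was over 0.8, and for 5 it was under 0.5. Those 5 were Rps26 (-0.07), Rpl39l (0.14), Rpl3l (0.35), Rps12 (0.36) and Rpl30 (0.43). On the mt-removed scale 57 members were over 0.8 and 10 under 0.5, which were the same 5 with Rpl7l1 (0.01), Rps27l (0.35), Rpl27 (0.40), Rpl10 (0.42) and Rps3a1 (0.45).

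Facts of the whole series bear on all values below. Every column sums to the same total, so TPM gives no read number, and the depth of the libraries is unknown. Transcripts of the mitochondrial genome (mt- rows) held 50.8% ± 3.67 (SD, n = 7) of the total in CAC at 8 weeks. In NCAC they held 59.8% ± 2.33 and in Con 62.8% ± 2.33 (n = 5 each). What these rows release is shared among all other rows, so every comparison was also made after mt- rows had been removed and the rest brought back to 1000000, here called the mt-removed scale. In Con libraries 3 and 4 of 4 weeks the mt- rows held 39.6% and 39.7%, and these 2 stood apart. CAC library 3 of 8 weeks held 41.9 TPM of the acute-phase gene Itih4 and the other 6 held 709 to 1176 TPM, so the members' sums and counts at 8 weeks are also given without it. At 4 weeks 1 sample number stands in the titles of both a CAC and a Con library. The brown adipocyte markers that identify the tissue were present, with a summed TPM of 5938 in CAC, 8659 in NCAC and 7291 in Con at 8 weeks.

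CAC was compared with Con at each week to ask how brown fat differs as the cachectic tumour grows. The summed TPM of the members was highest in CAC at 8 weeks and lowest in Con at 8 weeks. In CAC at 8 weeks the 7 libraries held 17703, 24400, 14322, 16519, 13674, 20580 and 19604 TPM (18115 ± 3755, SD). In NCAC the 5 libraries held 12176, 13109, 18383, 14188 and 17676 TPM (15106 ± 2773), and in Con 10049, 12852, 12324, 13488 and 12450 TPM (12233 ± 1302). Every CAC library lay above every Con library, and NCAC overlapped with both. The members thus took 1.81% of all TPM in CAC and 1.22% in Con. The CAC mean was 1.20 times the Con mean at 2 weeks and 0.949 times at 4 weeks. It was 1.26 times at 6 weeks and 1.48 times at 8 weeks, and only at 8 weeks did the 2 groups not overlap. At 4 weeks Con was uneven, at 21315 and 24710 TPM in libraries 3 and 4 and 13608 to 14637 TPM in the other 3.

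Most of this difference was gone on the mt-removed scale. At 8 weeks CAC summed to 36675 ± 5694 (SD, n = 7), NCAC to 37368 ± 4997 and Con to 32855 ± 2337 (n = 5 each). CAC libraries ran from 26997 to 43784 and Con libraries from 29156 to 34772, so the groups overlapped. Without CAC library 3 of 8 weeks the CAC mean was 18747 TPM, 1.53 times Con without overlap, and on the mt-removed scale it was 37417, 1.14 times Con with overlap. From 2 to 8 weeks the ratios of CAC to Con were 1.14, 1.07, 1.03 and 1.12. The ratio of CAC to NCAC at 8 weeks was 1.20 on TPM and 0.981 on the mt-removed scale, and 1.24 and 1.001 without CAC library 3. RNAs for proteins of the large and small subunit kept their proportion, with a ratio of summed TPM between 1.39 and 1.47 in all 12 group means. Pseudogene rows were not part of these sums.

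**Figure D1:**
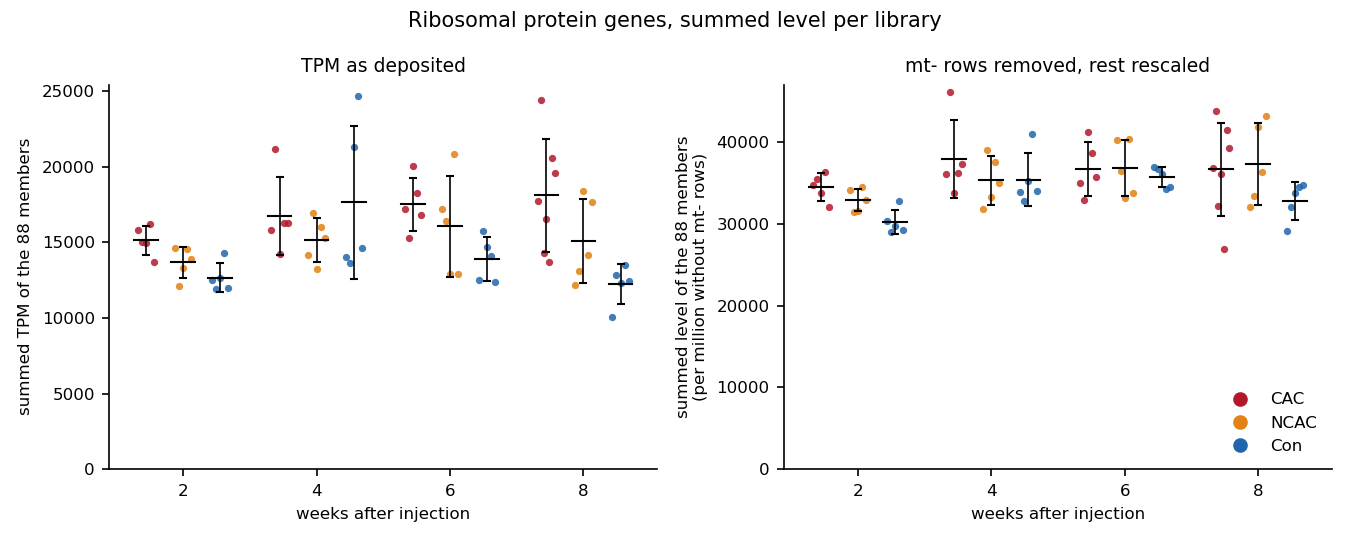
Summed level of the 88 members in each library (points) by weeks after injection, with mean and SD as bars, in TPM as deposited (left) and scaled to a total of 1000000 after removal of the mt- rows (right). On TPM the 7 CAC libraries of 8 weeks, from 13674 to 24400, lie above the 5 Con libraries, from 10049 to 13488, and on the right the groups overlap.

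At 8 weeks nearly all members were higher in CAC than in Con on TPM. Of 82 tested, 79 rose and 0 fell, with 54.0% of all genes called in either direction, 52.1% higher and 1.97% lower. The median log2 change of the members was 0.54 on the log2(TPM + 1) scale, and that of all genes was 0.28. For 33 members every CAC library lay above every Con library, as it did for 14.6% of all genes. The 3 members not called were Rps2, Rpl3l and Rps26. The count was also 79 without CAC library 3. Leaving that library out changed no call of the 35 members tracked by name and moved their changes by -0.10 to 0.12, except for Rpl10 and Rps26 (-0.95 without it).

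After removal of the mt- rows 12 members rose and 0 fell, with 25.5% of genes called in either direction, 10.1% higher and 15.4% lower. The median change was then 0.15 for the members and -0.05 for all genes. Among the 12 were Rps12 (1.27), Rpl10 (0.55), Rpl27 (0.49), Rps6 (0.35), Rpl12 (0.30), Rpl13a (0.29), Rpl4, Rps9 and Rpl24 (0.27 each), Rpl6 (0.23) and Rpl19 (0.18). Every other member named below as higher against Con at 8 weeks on TPM was not called on this scale. This count ranged from 4 without Con library 1 to 45 without CAC library 5. It was 5 without CAC library 2, 7 without CAC library 6, 7 without Con library 2 and 25 without CAC library 3. The groups did not overlap for 1 member (2.98% of all genes had CAC higher), Rps12.

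**Figure D2:**
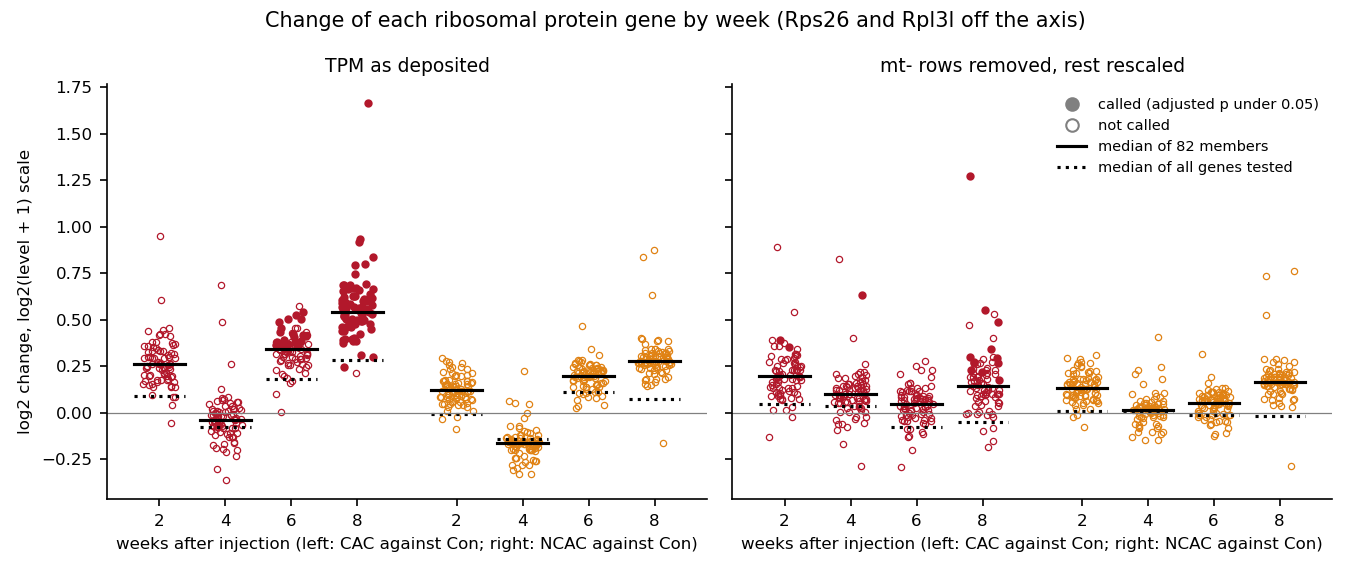
Log2 change of each tested member except Rps26 and Rpl3l by week, for CAC against Con (left of each panel) and NCAC against Con (right of each panel), on TPM and after removal of mt- rows; both comparisons share the Con libraries. Filled points were called, solid lines are member medians and dotted lines medians of all genes: at 8 weeks the CAC median was 0.54 against 0.28 on TPM and 0.15 against -0.05 without mt- rows.

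Rps6 is the small-subunit protein phosphorylated by the S6 kinases, and it is read as a marker of mTORC1 activity at the protein level. Its RNA stood at 288, 374.1, 190.1, 240.5, 185.9, 343.5 and 282.7 TPM in the CAC libraries of 8 weeks. Con libraries held 125.3, 158.3, 167.4, 170.9 and 168.7 TPM, and NCAC libraries 160.8 to 268.8 TPM. All CAC values lay above all Con values, while NCAC overlapped with both. The log2 change from Con was 0.74 (SE 0.15, adjusted p = 8.73e-05, limma), and on the mt-removed scale it was 0.35 (adjusted p = 0.0182).

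Rpl13a, a large-subunit protein that also takes part in a complex silencing inflammatory messages, followed the same order. The CAC libraries held 465.9, 661.5, 348.5, 393.1, 362, 505.9 and 467.6 TPM, and the Con libraries 217.7, 288.2, 288.7, 310 and 288.6 TPM. The groups did not overlap, and the log2 change was 0.69 (SE 0.14, adjusted p = 7.55e-05, limma). Rpl5 and Rpl11 form a particle with 5S ribosomal RNA that binds the p53 regulator Mdm2. Rpl5 rose by 0.62 (SE 0.14, adjusted p = 0.000249) and Rpl11 by 0.46 (SE 0.11, adjusted p = 0.00041). Every CAC library was above every Con library for both, at 77.77 to 147.5 TPM against 55.23 to 75.5 TPM for Rpl5 and at 106.9 to 177.6 TPM against 82.08 to 99.89 TPM for Rpl11. Neither was called on the mt-removed scale (0.23 and 0.06).

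The stalk of the large subunit is built from Rplp0, its base, and the acidic proteins Rplp1 and Rplp2. Rplp0 rose by 0.67 (SE 0.15), from 190.3 to 311.2 TPM in Con to 282.7 to 593.9 TPM in CAC, so 1 CAC library lay within the Con range. Rplp2 rose by 0.44 (SE 0.14). Rplp1 rose by 0.40 (SE 0.16, adjusted p = 0.0304), with 1 CAC library at 1283 TPM and the other 6 at 567.3 to 783.5 TPM, against 468.8 to 649.8 TPM in Con. Rps3, which lines the entry of the messenger channel, rose by 0.63. Rps27a, made as a fusion with ubiquitin, rose by 0.60. Rpsa, also known as a laminin-binding protein, rose by 0.50. Rpl41, one of the shortest known proteins, rose by 0.45. Rps19, a gene mutated in Diamond-Blackfan anaemia, rose by 0.39. None of these 8 was called on the mt-removed scale, where Rplp1 and Rps19 stood at -0.00. The calls of Rplp1, Rps19 and Rpsa on TPM, with adjusted p up to 0.127, 0.0527 and 0.0527, were lost when CAC library 2 or Con library 1 was left out.

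**Figure D3:**
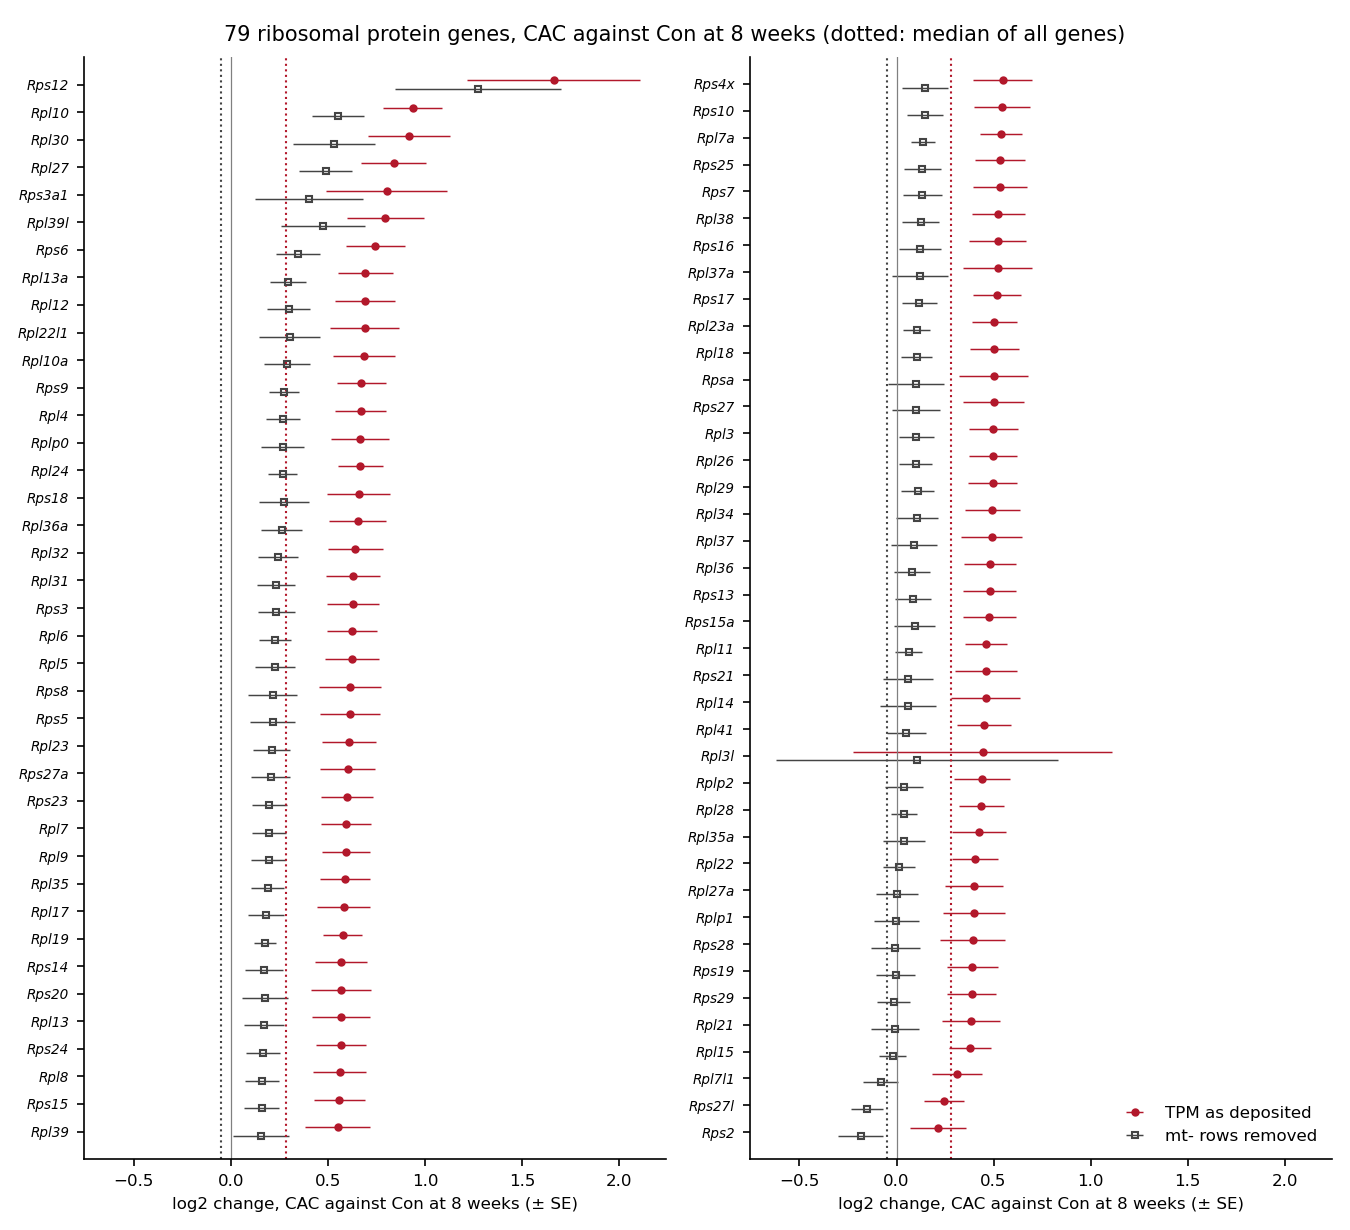
Log2 change (± SE) of 79 tested members between CAC and Con at 8 weeks on TPM (filled) and after removal of mt- rows (open), ordered by the change on TPM; Rps26 is off the axis, 2 members are not drawn, and dotted lines are the medians of all genes. Rps12 (1.66), Rpl10 (0.94), Rpl30 (0.92) and Rpl27 (0.84) head the order and Rps2 (0.21) ends it.

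The members with the largest changes at 8 weeks were Rps12, Rpl10, Rpl30, Rpl27 and Rps3a1. Rps12 (chromosome 10, 23785183 to 23787275 in mm10), a small-subunit protein, stood at 152, 200, 117.8, 167.1, 303.1, 240.4 and 233.8 TPM in CAC. It held 118.3, 119.2, 123.3, 54.42 and 161.1 TPM in NCAC and 23.27, 104.9, 92.8, 74.71 and 47.08 TPM in Con. CAC and Con did not overlap, and the log2 change was 1.66 (SE 0.44, adjusted p = 0.00171, limma).

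Rpl10 (chromosome X, 74270812 to 74273135) joins the large subunit late in its assembly. It stood at 51.98, 54.45, 25.72, 51.83, 54.86, 70.75 and 62.38 TPM in CAC, at 20.46 to 42.12 TPM in NCAC and at 21.05, 28.34, 27.81, 28.4 and 26.55 TPM in Con. CAC library 3 lay among the Con libraries, and the other 6 lay above every NCAC and Con library. The log2 change was 0.94 against Con (SE 0.15, adjusted p = 2.15e-06, limma) and 0.73 against NCAC (SE 0.15, adjusted p = 0.000178). Without CAC library 3 these were 1.10 (adjusted p = 1.62e-09) and 0.89 (adjusted p = 3.16e-07). Rpl10 also rose against Con at 6 weeks (0.54, adjusted p = 0.0145), when CAC libraries held 44.76 to 53.21 TPM, NCAC libraries 28.41 to 38.76 TPM and Con libraries 31.89 to 32.92 TPM. At that week CAC overlapped with neither group. This was for the row of Rpl10 alone. With pseudogene rows summed, as described below, the 6-week change against Con was 0.32 and not called (adjusted p = 0.0968, limma). CAC then overlapped with both groups.

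Rpl27 (chromosome 11, 101442298 to 101445529), of the large subunit, rose by 0.84 (SE 0.17, adjusted p = 6.45e-05), with 9.574 to 21.75 TPM in CAC and 7.979 to 9.416 TPM in Con. Rpl30 (chromosome 15, 34440505 to 34443640), a large-subunit protein that also aids the decoding of selenocysteine, rose by 0.92 (SE 0.21, adjusted p = 0.000349), with 47.08 to 104.4 TPM in CAC and 26.82 to 44.71 TPM in Con. Neither overlapped between the 2 groups. Rps3a1 (chromosome 3, 86137940 to 86142702) rose by 0.80 (SE 0.31, adjusted p = 0.0273), with wide and overlapping ranges of 223.6 to 617.8 TPM in CAC and 118.7 to 336.3 TPM in Con. It was no longer called when CAC library 1, 2 or 6 was left out, or when Con library 1 or 3 was.

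Among the members at the other end were Rps26 (-0.59, adjusted p = 0.656), Rps2 (0.21, adjusted p = 0.199), Rps27l (0.24) and Rpl7l1 (0.31), of which the first 2 were not called. Rps2, at the entry of the messenger channel, held 51.17 to 150.5 TPM in CAC and 68.87 to 87.45 TPM in Con, and it was called without CAC library 5. Changes of Rps2, Rps27l and Rpl7l1 were negative on the mt-removed scale (-0.19, -0.15 and -0.08), and none was called there. On TPM, Rps27l and Rpl7l1 each lost their call in 6 of the 12 fits without 1 library, both of them without CAC library 2 or 7 and without Con library 1 or 3 (adjusted p up to 0.140 and 0.1003).

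Several of the most variable members have rows named as their pseudogenes, and reads of similar sequence can be split between such rows. Sequences of these rows were not compared here. Pseudogene refers to the name, as GENCODE lists Rps12-ps3 and Rpl10-ps3 as protein coding. The file lists 270 rows named as numbered pseudogenes, 269 of them of a member, and 7 passed the filter on low values. Rps12-ps3 held a median of 378.7 TPM (76.92 to 686.8), above Rps12 itself. When all such rows were added to their parent, a setting chosen after the data were seen, the median level of Rps12 went from 95.4 to 473.5 TPM and its within-group SD from 0.78 to 0.25. The change of Rps12 at 8 weeks against Con was then 0.58 (SE 0.14, adjusted p = 0.000874) on TPM and 0.18 (adjusted p = 0.229) on the mt-removed scale.

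Summing had the same kind of effect on Rpl10 and Rpl27. Rpl10 went from a median of 32.5 to 510.3 TPM, and its change to 0.65 (adjusted p = 9.3e-05) on TPM and 0.25 (adjusted p = 0.0431) on the mt-removed scale. Against NCAC its change was 0.37 (adjusted p = 0.0243) on TPM and 0.09 (adjusted p = 0.560) on the mt-removed scale. Rpl27 went from 12.2 to 326.7 TPM, with a change of 0.55 (adjusted p = 0.000673) on TPM and 0.15 (adjusted p = 0.245) on the mt-removed scale. The larger changes of the rows of Rps12, Rpl10 and Rpl27 taken alone therefore came down to near the member median of 0.54 on TPM once the pseudogene rows were included. With this setting 80 members rose at 8 weeks on TPM and 11 on the mt-removed scale.

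Rps26, a protein at the messenger exit of the small subunit, was listed in 3 distinct states. In 44 libraries the row Rps26-ps1 was under 1 TPM and Rps26 held 181.7 to 496.0 TPM. In 14 libraries both rows were filled, with Rps26 at 102.1 to 197.3 TPM and Rps26-ps1 at 141.6 to 310.8 TPM. In 4 libraries Rps26 was under 1 TPM and Rps26-ps1 at 348.2 to 607.7 TPM. These 4 were 1 NCAC library of 2 weeks, CAC libraries 2 and 4 of 8 weeks and Con library 3 of 8 weeks. The sum of both rows ranged from 181.7 to 607.8 TPM over all 62 libraries, and its change at 8 weeks against Con was 0.61 (SE 0.19, adjusted p = 0.00742) on TPM and 0.21 (adjusted p = 0.345) on the mt-removed scale. The share of the 3 states by group was not tested.

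**Figure D4:**
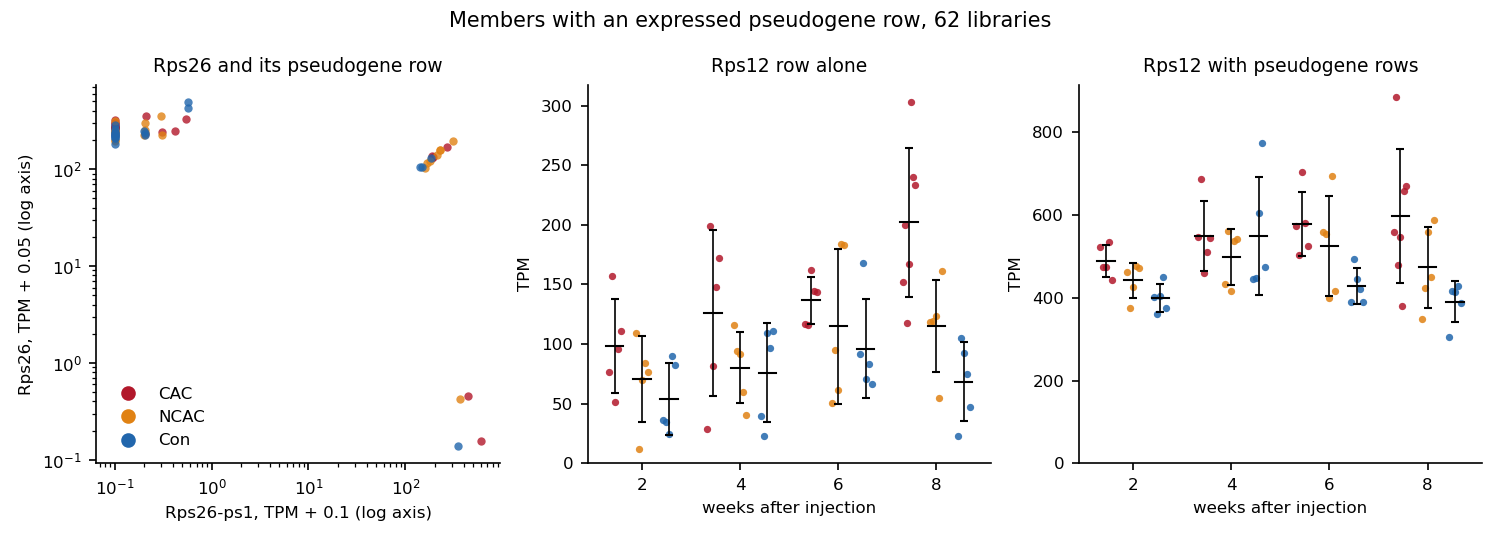
Left, Rps26 against Rps26-ps1 in each of the 62 libraries on log axes; middle and right, Rps12 alone and Rps12 with its pseudogene rows by group, with mean and SD. The left panel falls into 3 clusters of 44, 14 and 4 libraries, and the spread of Rps12 within groups narrows from 0.78 to 0.25 (log2) after summing.

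Paralogs of ribosomal proteins are often restricted to certain tissues, and those in the set behaved differently from one another. Rpl39l (chromosome 16, 10170226 to 10174911), a paralog of Rpl39 best known from testis, held 9.133, 9.805, 12.79, 11.68, 5.075, 11.21 and 13.75 TPM in CAC at 8 weeks. NCAC libraries held 4.986, 4.545, 3.868, 5.165 and 5.197 TPM and Con libraries 4.934, 6.311, 5.658, 4.448 and 5.829 TPM. All CAC libraries except library 5 lay above both other groups. The log2 change was 0.80 against Con (SE 0.20, adjusted p = 0.000807, limma) and 0.96 against NCAC (SE 0.20, adjusted p = 0.000171). On the mt-removed scale the change against Con was 0.47 and no longer called (adjusted p = 0.1003), while that against NCAC was still called (0.76, adjusted p = 0.00814).

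Rpl39l was also the 1 member whose CAC against Con difference changed between 2 and 8 weeks, by 0.85 (SE 0.29, adjusted p = 0.0459), where 11.6% of genes were called, 10.2% in that direction and 1.42% in the other, and 14 members had an unadjusted p under 0.05. Without mt- rows that change was 0.60 (adjusted p = 0.236). On TPM, 0 members were called for this change when 1 of CAC libraries 2 and 5 or Con libraries 1, 2 and 4 of 2 weeks, or of CAC libraries 2, 6 and 7 or Con libraries 1, 3, 4 and 5 of 8 weeks, was left out, and 6 and 3 when CAC library 3 or 5 of 8 weeks was. Its mean was 4.70 ± 2.06 TPM in CAC at 2 weeks, 3.84 ± 0.967 TPM at 4 weeks, 6.12 ± 1.37 TPM at 6 weeks (SD, n = 5 each) and 10.49 ± 2.87 TPM at 8 weeks (n = 7). Rpl39 itself, at 41.94 to 140.7 TPM in CAC and 41.58 to 69.56 TPM in Con at 8 weeks, rose by 0.55 against Con and stayed uncalled against NCAC.

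Rpl22l1, the paralog of Rpl22, held 21.75 to 63.3 TPM in CAC and 22.6 to 35.63 TPM in Con at 8 weeks and rose by 0.69 (SE 0.18, adjusted p = 0.00113). That call too was lost on the mt-removed scale (0.30, adjusted p = 0.154). Rpl22 rose by 0.40. Rps27l, a paralog of Rps27 induced by p53 in other tissues, held 102.4, 135, 109.1, 105.6, 71.12, 110.4 and 122.6 TPM in CAC, 95.76 to 125 TPM in NCAC and 77.39 to 100.6 TPM in Con. It rose by 0.24 against Con (SE 0.10, adjusted p = 0.0386) and its change against NCAC was 0.00. It fell against NCAC by 0.28 on the mt-removed scale (adjusted p = 0.00888). Rps27 rose by 0.50 against Con. Rpl7 rose by 0.59 and its distant relative Rpl7l1, known for a part in ribosome assembly, by 0.31.

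Rpl3l, the paralog of Rpl3 made in skeletal and heart muscle, was called at 2 weeks only among the weekly comparisons of CAC with Con. It held 60.03, 32.61, 17.5, 24.32 and 7.061 TPM in CAC at 2 weeks and 0.4374, 3.425, 1.992, 10.93 and 2.105 TPM in Con, with 1 CAC library inside the Con range. The log2 change was 2.68 (SE 0.72, adjusted p = 0.0246, limma), and the call was lost when CAC library 1, 2 or 4 was left out, and when Con library 1 or 5 was. At the same week 10 of 10 skeletal muscle markers were higher in CAC, with a summed TPM of 4628 ± 3566 (SD, n = 5) against 639 ± 628 in Con. Of all 12581 genes 576 were called higher at that week. The part of muscle RNA in the Rpl3l call was not tested. Over the 62 libraries the log2 values of Rpl3l and of the muscle list had a Pearson correlation of 0.98, given as a description of libraries that share their groups. At 8 weeks Rpl3l was not called (0.44, adjusted p = 0.587), and neither were any of the 10 muscle markers. Rpl3 rose by 0.50 at 8 weeks.

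**Figure D5:**
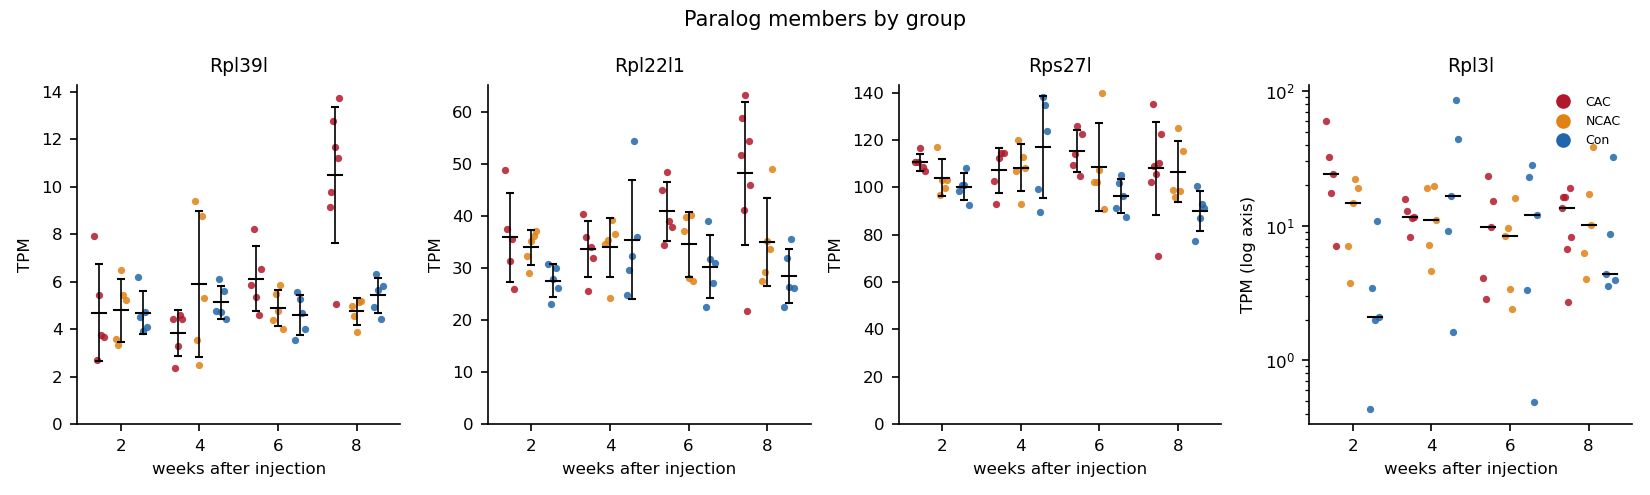
TPM of Rpl39l, Rpl22l1, Rps27l and Rpl3l in each library by week, with mean and SD (Rpl3l on a log axis, with the median). In the Rpl39l panel 6 of the 7 CAC libraries of 8 weeks, at 9.133 to 13.75 TPM, stand above the NCAC and Con libraries of that week.

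At earlier weeks fewer members were called. At 2 weeks 1 of 82 was higher in CAC than in Con on TPM, Rpl3l, where 4.63% of genes were called in either direction, 4.58% higher and 0.0477% lower. A fit of the CAC and Con libraries of that week alone, with its own estimate of the spread, called 39 members, all of them higher. The share of all genes called in that fit is not given here, so this count is not shown to be particular to the members. The members' median change was 0.26 and that of all genes 0.09. Without mt- rows Rpl13 (0.36), Rps15a (0.39) and Rpl3l (2.90) were higher, with 5.30% of genes called and 4.97% higher, and the medians were 0.20 and 0.05. That count of 3 was 0 without CAC library 1, 2 or 4 or Con library 1, it was 1 without Con library 2, 3 or 5, and it was 9 without CAC library 5. Rpl13 and Rps15a are structural proteins of the large and the small subunit. On TPM 26 members had an unadjusted p under 0.05, a limit for which no share of all genes is given here. The highest changes after Rpl3l were those of Rps12 (0.95, adjusted p = 0.301) and Rps3a1 (0.61, adjusted p = 0.371), and the lowest those of Rpl7l1 (0.04), Rpl28 (0.08) and Rplp2 (0.08) among members with a mean of at least 5 TPM.

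At 4 weeks 0 members were called with limma on TPM, where 3.85% of genes were (0.819% higher and 3.03% lower), and 1 had an unadjusted p under 0.05. The median was -0.04, against -0.08 for all genes. Rps12 (0.69), Rpl10 (0.49, adjusted p = 0.0700) and Rpl21 (0.26) had the highest changes, and Rpl3l (-0.50), Rpl39l (-0.36) and Rpl27a (-0.30) the lowest. With mt- rows removed Rpl10 alone was higher (0.63, adjusted p = 0.00642), with 5.33% of genes called. That call was lost when Con libraries 3 and 4 were left out as well. It was also lost with mt- rows removed and pseudogene rows summed (0.18, adjusted p = 0.327, limma).

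At 6 weeks 19 members rose in CAC against Con on TPM and 0 fell, with 21.7% of genes called in either direction and 20.7% higher, so the share of members was close to that of all genes. The median was 0.35 for the members and 0.18 for all genes. The 19 changes lay between 0.36 and 0.54, with Rpl10 (0.54) and Rps6 (0.53) the largest. The Rpl10 call was lost with pseudogene rows summed (0.32, adjusted p = 0.0968, limma). Rps6 held 234.6 to 287.9 TPM in CAC and 161.6 to 214.5 TPM in Con, without overlap. Rps12 had the highest change of all (0.57) and was not called (adjusted p = 0.385), and Rps28 (0.01), Rpl3l (0.10) and Rps29 (0.10) had the lowest. With mt- rows removed 0 members were called with limma and 2 had an unadjusted p under 0.05, where 9.67% of genes were called. Medians there were 0.05 and -0.08. The TPM count fell to 10 without CAC library 1, 4 without CAC library 3, 6 without CAC library 4, 4 without Con library 1 and 2 without Con library 5, and it reached 34 without Con library 2 and 46 in a fit of the compared groups only. Shares of all genes called in those fits are not given here.

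CAC was compared with NCAC to ask how brown fat differs between the 2 kinds of tumour. At 8 weeks 18 members rose and 0 fell on TPM, where 39.3% of all genes were called, 37.3% higher and 1.98% lower. The share of members called was thus below that of all genes, and the median change of 0.25 was near the 0.21 of all genes. For 0 members did the groups stay apart, against 6.82% of all genes with every CAC library above. The largest calls were Rpl39l (0.96), Rpl10 (0.73) and Rpl27 (0.49), and the other 15 lay between 0.31 and 0.40, among them Rps6 (0.40), Rpl5 (0.40), Rplp0 (0.38) and Rpl3 (0.34). Each of these 4 was lost when CAC library 2 was left out and when NCAC library 1 or 2 was, with adjusted p up to 0.121, 0.103, 0.151 and 0.175. The Rpl27 call was lost without NCAC library 2 or 4, and also with pseudogene rows summed (0.21, adjusted p = 0.200, limma). Rps12 had a change of 0.83 and was not called (adjusted p = 0.132). The lowest changes were those of Rps26 (-2.21, adjusted p = 0.0922), Rpl3l (-0.14) and Rps3a1 (-0.07). Without CAC library 3 Rps26 was called lower (-2.57, adjusted p = 0.0492), and Rps3, Rpl13a and Rpl22l1 were called higher (0.37, 0.37 and 0.44). These Rps26 values are for its own row. With pseudogene rows summed and all CAC libraries kept, its change was 0.38 and not called (adjusted p = 0.1095, limma).

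This count depended on single libraries. It was 6, 9 and 11 without CAC library 2, 6 and 7, and 34 and 42 without CAC library 3 and 5. Leaving out NCAC library 1, 2 or 4 gave 4, 5 and 8 calls, and leaving out NCAC library 3 or 5 gave 37 and 33. A fit of the compared groups only gave 3. On the mt-removed scale Rpl39l (0.76, adjusted p = 0.00814) and Rpl10 (0.45, adjusted p = 0.0109) were higher and Rps27l was lower, where 23.4% of genes were called, 10.3% higher and 13.1% lower, and the median was -0.03 for the members and -0.04 for all genes.

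At 2, 4 and 6 weeks 0 members differed between CAC and NCAC by limma, where 0.0397%, 0.588% and 7.77% of genes were called. The last of these shares was made up of 5.82% higher and 1.95% lower. Unadjusted p was under 0.05 in 2, 1 and 4 members. The members' medians were 0.14, 0.13 and 0.13.

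NCAC was compared with Con to ask what a tumour without cachexia does, using the same Con libraries as above. By limma 0 members were called at any week, where 0% of genes were called at 2, 6 and 8 weeks and 0.00795% at 4 weeks. Unadjusted p was under 0.05 in 1, 1, 4 and 32 members at 2, 4, 6 and 8 weeks. The share of all genes under that unadjusted limit is not given here, and members are correlated, so these counts are not shown to be particular to the members. At 8 weeks the members' median was 0.28 on TPM and 0.17 on the mt-removed scale, with 0.07 and -0.02 for all genes. The highest values at 8 weeks were those of Rps3a1 (0.87), Rps12 (0.84) and Rpl30 (0.63), each with an adjusted p = 0.980, and Rpl39l was at -0.16. For 2 members every NCAC library of 8 weeks lay above every Con library on TPM (0.835% of all genes), and on the mt-removed scale for 1 (0.215%). At 2 weeks this held for 0 members on TPM (1.30% of all genes) and for 15 on the mt-removed scale (1.86%). For CAC against Con at 2 weeks it held for 16 members on TPM (8.06% of all genes) and 16 on the mt-removed scale (5.25%). In that comparison the counts were 0 (0.906%) and 2 (2.93%) at 4 weeks, and 20 (15.2%) and 1 (3.51%) at 6 weeks.

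Over time within groups, 5 members rose in CAC between 2 and 8 weeks, where 20.5% of genes were called, 15.0% higher and 5.56% lower. These were Rpl39l (1.03, SE 0.20, adjusted p = 0.000137), Rpl10 (0.54), Rps6 (0.41), Rps9 (0.34) and Rpl19 (0.29). Values of Rpl10 here, and of Rpl10 and Rps2 on the mt-removed scale below, are for their own rows without pseudogene rows. The count was 28 without CAC library 3 of 8 weeks and 18 without library 5. It was 2 or 3 without CAC library 1, 2, 3 or 5 of 2 weeks and without CAC library 1, 2, 6 or 7 of 8 weeks. On the mt-removed scale Rpl39l and Rpl10 rose while Rps2 and Rps27l fell by 0.31 and 0.22, with 25.2% of genes called, 8.51% higher and 16.7% lower. The count of lower members was 0 without CAC library 2, 3, 4 or 5 of 2 weeks or CAC library 5 of 8 weeks, and 1 without CAC library 1 of 2 weeks or CAC library 1, 3 or 6 of 8 weeks. The count of higher members was 8 and 13 without CAC library 3 and 5 of 8 weeks, and 1 without CAC library 1 or 3 of 2 weeks or CAC library 1, 4, 6 or 7 of 8 weeks. In NCAC and in Con 0 members were called between these weeks by limma, where 0% and 0.0318% of genes were.

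Other genes of translation were counted by lists chosen with earlier results of these data known. Their counts at 8 weeks against Con stand beside 52.1% of all genes higher and an all-gene median of 0.28 on TPM, and 10.1% higher, 15.4% lower and a median of -0.05 on the mt-removed scale. Of 3 tested ribosomal protein genes outside the symbol rule, all 3 rose at 8 weeks against Con. Among them were the small-subunit fusion gene Fau (0.74) and Rpl36al (0.52). Of 20 elongation and initiation factors and other messages with TOP tracts, 20 rose (median 0.46), among them the elongation factors Eef1a1 (0.45) and Eef2 (0.55). Of 34 ribosome biogenesis genes 30 rose (median 0.49), among them the nucleolar proteins Ncl (0.54) and Fbl (0.40) and the RNA polymerase I subunit Polr1b (0.37). On the mt-removed scale 0 rose and 1 fell among the TOP messages (median 0.06), and 4 rose and 1 fell among the biogenesis genes (median 0.15).

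Of 21 tested genes of mTORC1 and its targets, 14 rose on TPM (median 0.36), where 52.1% of all genes did, and 5 rose and 5 fell on the mt-removed scale (median -0.02), where 10.1% of all genes rose and 15.4% fell. Mtor, the kinase itself, rose by 0.56 on TPM and was not called on the mt-removed scale (0.18). The S6 kinases Rps6kb1 and Rps6kb2 rose on both scales, by 0.58 and 0.63 on TPM. Inhibitors of mTORC1 moved in both directions. Ddit4 rose by 2.44 on TPM and 2.14 on the mt-removed scale and Sesn2 by 1.10 and 0.78, while Tsc2 and Deptor were not called on TPM and fell by 0.38 and 0.53 on the mt-removed scale. Myc, which activates ribosome biogenesis genes, rose by 1.86 and 1.85.

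The mitochondrial ribosome is built from another set of nuclear genes. Of its 77 protein genes 23 rose on TPM at 8 weeks against Con (median 0.12, range -0.21 to 0.44), where 52.1% of all genes did. On the mt-removed scale 0 rose and 52 fell (median -0.27), where 15.4% of all genes fell and their median was -0.05. Against NCAC 0 rose and 56 fell on that scale (median -0.28), where 13.1% of all genes fell and their median was -0.04. The difference between the 2 sets was not tested.

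Markers of other cell types moved with CAC at 8 weeks and in part before. Of 8 macrophage markers 7 rose against Con at 2 weeks and 6 at 6 weeks. At 8 weeks all 8 rose, with a summed TPM of 292 ± 83.3 (SD, n = 7) in CAC, 80.1 ± 21.9 in NCAC and 84.6 ± 10.95 in Con (n = 5 each), and 6 rose on the mt-removed scale. All 4 tested neutrophil markers rose, with sums of 28.2 TPM in CAC and 8.63 TPM in Con. All 5 epithelial markers fell (sums of 10.7 TPM in CAC and 61.97 TPM in Con). Of 5 adipocyte markers 3 rose, a share near that of all genes on TPM, and of 7 brown adipocyte markers 1 rose and 2 fell. Markers of T cells and of dividing cells did not pass the filter on low values (sums of 0.681 and 1.25 TPM in CAC and 0.960 and 0.910 TPM in Con). Of the melanocyte and melanoma markers, only Tyr, the enzyme that begins melanin synthesis, was listed at 0 in every library of 8 weeks. Values of the other markers of that list are not given here, so no absence of such RNA can be read from Tyr. The part of these cells in the members' changes was not tested.

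By tract, the 41 members with a run of pyrimidines at the annotated start and the 21 without one were set side by side at 8 weeks against Con. Their median changes were 0.53 and 0.56 on TPM and 0.13 and 0.16 on the mt-removed scale. Of the 41, 38 rose on TPM, and of the 21, all 21 did. On the mt-removed scale 7 of the 41 and 4 of the 21 rose. The shares of all genes higher are those given above for 8 weeks against Con.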

How the data were processed

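The authors deposited TPM, a normalized abundance, for 47643 rows in 62 libraries, and all columns matched a sample title. Per the labels' protocols, RNA was extracted with Trizol and sequenced from stranded mRNA libraries on a NovaSeq instrument. That text names another tumour model at another time. Values refer to mm10, per the submitters' processing notes, and the aligner, annotation and counting of multi-mapped reads are not given in the sources used here, so rows with near-identical copies are uncertain. TPM keeps no depth, and no counting interval can be given.

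Tests used log2(TPM + 1), which understates the changes of low genes. The 12581 genes tested reached 1 TPM or more in 5 or more libraries. One limma 3.58.1 model (R 4.3.3, trended empirical Bayes) over all 12 groups gave the contrasts, and called genes had a p under 0.05 after Benjamini-Hochberg adjustment over all genes of the contrast. The mt-removed fit tested 14181 genes. Counts of members with an unadjusted p under 0.05 have no share of all genes beside them. The code was tested on simulated data.

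The members, the gene lists, the tests and the named genes were chosen with earlier results of these data known. Named were the 5 highest and 5 lowest changes at 8 weeks against Con, the 3 highest and 3 lowest in the other CAC contrasts named with extremes (all from members whose higher group averaged 5 TPM or more), members with a role outside the ribosome's structure, paralogs with their partners, and members called against the direction of the others. Short sets of called members are named after their values were seen. Rpl10l and Rps4l were not tested. A few members and list genes are not reported here by name. Alternatives were the filter raised to 5 TPM (8727 genes), all 23425 genes with a value, a pseudocount of 0.1, removal of mt- rows, median-of-ratios rescaling, the compared groups only, a block for the replicate number, and the omission of each library in turn. Sums with pseudogene rows, and 4-week rescaled fits without Con libraries 3 and 4, were added after the data were seen. Gene positions are from GENCODE vM21 on mm10 and sequences from RefSeq on GRCm38.p6. Figures used Python 3.11.15 and matplotlib 3.10.9.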

Additional observations from a re-analysis of the deposited data

Results flagged for a closer look

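Values far from the other libraries of their group, by Dixon's 95% limit, were sought in 141 groups of values (the sums and the ratio of the subunits in all 12 groups, and the named members at 8 weeks), and 11 were found. Chance flags about 1 in 20 groups. In Con at 8 weeks, library 1 was low for Rpl10 (21.05 TPM, next 26.55), Rps6 (125.3 TPM, next 158.3), Rps19 (36.95 TPM, next 45.33) and Rpl13a (217.7 TPM, next 288.2). Con library 3 was low for Rps26 (0.08839 TPM, next 181.7) and Con library 4 was high for Rpl3l (32.17 TPM, next 8.657). In CAC at 8 weeks, library 3 was low for Rpl10 (25.72 TPM, next 51.83) and library 2 high for Rplp1 (1283 TPM, next 783.5). NCAC library 5 of 8 weeks was high for Rps3a1 (554.5 TPM, next 385.9). The summed level on the mt-removed scale was high in CAC library 2 of 4 weeks (46118, next 37318), and the ratio of large to small subunit sums was low in Con library 5 of 2 weeks (1.44, against 1.46 to 1.47 in the other 4). The CAC against Con difference of Rpl39l was larger at 8 than at 2 weeks by 0.85 on the log2 scale, by the test of that difference.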

How the results depend on the processing

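TPM gives shares of a total in which mt- rows take a changing part, depth is unknown, and each count below rests on 5 to 7 libraries a group. Where no share of all genes called under a setting is given, the count is not shown to be particular to the members. For CAC against Con the count of members called was 1 at 2 weeks, 3 with mt- rows removed, 3 with pseudogene rows summed as well, 39 in a fit of the compared groups only, and 0 to 2 when each library was left out. At 4 weeks it was 0, 1 with mt- rows removed, 1 with median-of-ratios rescaling and 0 to 1 when each library was left out. The Rpl10 call at 4 weeks with mt- rows removed was lost with pseudogene rows summed as well (adjusted p = 0.327, limma). At 6 weeks it was 19, 10 with no filter, 0 with mt- rows removed, 0 with median-of-ratios rescaling, 46 with the compared groups only, 0 with mt- rows removed and pseudogene rows summed, and 2 to 34 over left-out libraries. At 8 weeks it was 79, 12 with mt- rows removed, 25 with median-of-ratios rescaling, 11 with mt- rows removed and pseudogene rows summed, and 65 to 79 over left-out libraries. With median-of-ratios rescaling 1700 genes in all were called higher and 1614 lower at 8 weeks. The cause of the differences between these counts was not tested beyond the scaling itself.

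For CAC against NCAC the count at 6 weeks was 0, 1 with the compared groups only and 0 to 2 over left-out libraries. At 8 weeks it was 18, 10 with no filter, 3 with mt- rows removed, 3 with median-of-ratios rescaling, 3 with the compared groups only, 2 with mt- rows removed and pseudogene rows summed, and 4 to 42 over left-out libraries. For CAC at 8 against 2 weeks it was 5, 3 with no filter, 9 with median-of-ratios rescaling, 2 with the compared groups only, 2 with mt- rows removed and pseudogene rows summed, and 2 to 28 over left-out libraries. For the change from 2 to 8 weeks it was 1, 2 with a filter at 5 TPM, 0 with a pseudocount of 0.1, no filter, mt- rows removed, median-of-ratios rescaling, or both mt- rows removed and pseudogene rows summed, and 0 to 6 over left-out libraries.

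Same-numbered libraries did not deviate together (correlations from -0.39 to 0.56, and in no contrast all over 0.1), and no label ties a number to a litter or day. With the replicate number as a block 65 members were called for CAC against Con at 8 weeks, 20 at 6 weeks, 4 for CAC against NCAC at 8 weeks, 1 for CAC at 8 against 2 weeks and 0 for the change from 2 to 8 weeks.

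Removal of mt- rows brought the group sums of the members to 34510, 32945 and 30239 at 2 weeks (CAC, NCAC and Con), 37902, 35354 and 35401 at 4 weeks, 36729, 36855 and 35733 at 6 weeks and 36675, 37368 and 32855 at 8 weeks. With median-of-ratios rescaling the Con sum at 8 weeks was 13958.

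Over 1350 settings of 35 named members, 1093 kept direction and call, 156 lost the call, 28 gained it and 73 changed sign, 60 of these with a call in neither fit. For CAC against Con at 8 weeks the sign changed to -0.19 and -0.14 for Rps2 (mt- rows removed and median-of-ratios rescaling; -0.14 with pseudogene rows summed too), to -0.15 and -0.11 for Rps27l and -0.082 and -0.037 for Rpl7l1. With mt- rows removed only it changed to -0.0081 for Rpl21, -0.0061 for Rps28, -0.014 for Rps29, -0.0039 for Rps19 and -0.0021 for Rplp1. Rps26 changed to 0.61 with pseudogene rows summed, to 0.21 with mt- rows removed as well, and ranged from -2.12 to 0.32 over left-out libraries. For CAC against NCAC at 8 weeks the values under those 2 scalings were -0.22 and -0.19 for Rps2 (-0.23 with pseudogene rows summed), -0.28 and -0.26 for Rps27l (-0.0485 with the replicate block), -0.16 and -0.13 for Rpl7l1, -0.0425 and -0.016 for Rpl28, -0.062 and -0.036 for Rplp2, -0.15 and -0.12 for Rpl21, -0.15 and -0.13 for Rpl27a, -0.073 and -0.046 for Rps28, -0.067 and -0.0405 for Rps29, -0.083 and -0.057 for Rpl11, -0.17 and -0.14 for Rps19, -0.057 and -0.031 for Rpsa, -0.0401 and -0.014 for Rplp1, -0.10 and -0.078 for Rpl41, -0.0615 and -0.035 for Rpl22, -0.11 and -0.078 for Rpl39, -0.054 and -0.028 for Rps27 and -0.048 and -0.022 for Rps4x. Rps27a changed to -0.0055 with mt- rows removed only, Rpl27 to -0.073 with pseudogene rows summed too, and Rps26 to 0.38 (pseudogene rows summed) and 0.0935 (mt- rows removed as well). Over left-out libraries Rpl3l ranged from -0.46 to 0.28, Rps2 from -0.043 to 0.21, Rps27l from -0.054 to 0.10 and Rps3a1 from -0.19 to 0.054.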
